A study of Mus musculus with 15 samples.

Results

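The microRNA miR-210 was followed through its strands miR-210-3p and miR-210-5p, the 2 rows of the deposited lung table that carry those names, out of 1424 mature miRNAs. Both strands passed the filter on low values, which left 818 miRNAs to test. Small RNA was sequenced from whole C57BL/6 mouse lungs at an age of 11 weeks, in 15 libraries, 7 days after a single intratracheal dose. The groups were wild type (WT) mice given phosphate-buffered saline (PBS; 3 libraries), WT mice given bleomycin (4), mice with both copies of extracellular superoxide dismutase (EC-SOD) in the R213G form given PBS (4), and R213G mice given bleomycin (4). Bleomycin breaks DNA and serves as a model of lung injury, and it was given as 100 uL at 1 U/mL. EC-SOD removes superoxide outside cells, and its R213G form binds the matrix less tightly. The variant is carried by every cell of the animal, mice of both sexes were used, and the lungs were flushed with PBS before freezing.

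The miRNA miR-210 is the best known of the miRNAs induced by low oxygen, because its gene is a direct target of the hypoxia-inducible factors (HIF). Its 3p strand is the guide, which is loaded into Argonaute and represses, among others, the iron-sulfur scaffold ISCU and thereby mitochondrial respiration. The 5p strand is its partner in the same hairpin, and most of it is degraded after the duplex is unwound. In the blood lineage miR-210 is also made by maturing red cells.

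Each mature sequence is shown with its seed, bases 2 to 8 from the 5′ end, in capitals, because the seed sets which messages a strand can pair with.
mmu-miR-210-3p: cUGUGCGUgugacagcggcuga
mmu-miR-210-5p: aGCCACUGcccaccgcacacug
Both strands are 22 bases long, so their levels can be compared without a correction for length. No other of the 1679 mouse mature miRNAs in the RefSeq table shares either seed, so neither strand has a seed family there. The hairpin follows, with both mature strands in capitals, the 5p strand first, to show that they are the 2 arms of 1 precursor.
Mir210 hairpin: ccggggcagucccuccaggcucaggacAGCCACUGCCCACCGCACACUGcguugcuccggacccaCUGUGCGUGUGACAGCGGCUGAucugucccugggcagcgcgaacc
It lies on the minus strand at chr7:141221384-141221493 (RefSeq, GRCm38.p6), 110 bases in all, with 16 bases between the strands. The GENCODE M21 annotation of the same build puts no other gene, exon or intron there, and the nearest genes are Rassf7, 2726 bases away, and Phrf1, 7291 bases away. In the fold of the hairpin predicted by RNAfold (-48.0 kcal/mol), 16 of the 22 bases of each strand were paired with the other strand.

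The deposited values were taken to be log2 of 1 plus an equalized count, that is, a read count rescaled so that libraries can be compared. Per library the equalized counts added up to between 18087289.84 and 24759615.29, which does not give the number of reads, and with the depth unknown no counting interval can be given. These sums were not equal between groups and were lower after bleomycin. They averaged 22747600 in WT PBS and 20159500 in WT bleomycin libraries, and 22340360 in R213G PBS and 19290300 in R213G bleomycin libraries. The labels do not state that each library is another mouse, so p-values measure the spread between these libraries. Markers of lung cells were present throughout, and of 2 endothelial, 5 epithelial and 2 smooth muscle miRNAs 0 were at 0 in any library. In whole lung, fewer cells of a type and less RNA per cell cannot be told apart, and this holds for every difference below.

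The guide strand miR-210-3p was moderately abundant and held a narrow range in all 15 libraries. It ranked between 172 and 185 of the 1424 miRNAs of the table, with equalized counts from 1228 to 1690. In WT lungs given PBS its log2 values were 10.59, 10.40 and 10.72, a mean of 10.57 ± 0.16 (SD, n = 3). In WT lungs given bleomycin they were 10.26, 10.42, 10.44 and 10.39, a mean of 10.38 ± 0.08 (SD, n = 4). Only replicate 2 of the PBS libraries lay inside the range of the bleomycin libraries, and the other 2 lay above it. In R213G lungs given PBS the values were 10.64, 10.37, 10.59 and 10.56, a mean of 10.54 ± 0.12 (SD, n = 4). In R213G lungs given bleomycin they were 10.53, 10.70, 10.58 and 10.63, a mean of 10.61 ± 0.07 (SD, n = 4). These R213G groups overlapped. Ordered by mean level, the groups ran R213G bleomycin, WT PBS, R213G PBS and WT bleomycin, and the SDs of neighbours in that order overlapped.

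Its partner miR-210-5p was far scarcer and spread more widely. It ranked between 387 and 542 of the table, with equalized counts from 21.3 to 87.3. In WT lungs given PBS its log2 values were 6.06, 5.80 and 6.14, a mean of 6.00 ± 0.18 (SD, n = 3). In WT lungs given bleomycin they were 6.46, 5.06, 5.05 and 5.36, a mean of 5.48 ± 0.67 (SD, n = 4). Replicates 2, 3 and 4 of these lay below every PBS library, while replicate 1 lay above every other library of the study. In R213G lungs given PBS the values were 6.17, 6.15, 6.07 and 6.34, a mean of 6.18 ± 0.12 (SD, n = 4). In R213G lungs given bleomycin they were 4.74, 5.03, 4.48 and 5.23, a mean of 4.87 ± 0.33 (SD, n = 4). All 4 of these lay below all 4 PBS libraries of the same genotype. By mean level the order was R213G PBS, WT PBS, WT bleomycin and R213G bleomycin, and the SDs of neighbours in it overlapped.

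**Figure D1:**
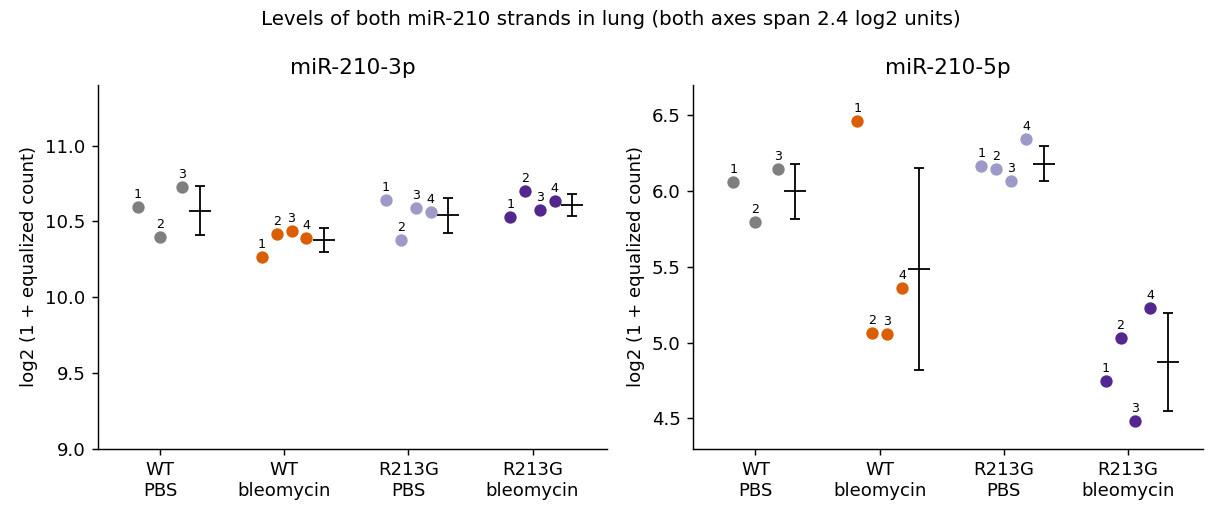
Log2 of 1 plus the equalized count of each miR-210 strand (y axes, equal spans) by group (x axes); each point is 1 library, numbered by replicate, and the bar is the mean with its SD. The 3p strand stays between 10.26 and 10.72 in all groups, while the 5p strand is at 4.48 to 5.23 in R213G lungs given bleomycin against 6.07 to 6.34 in those given PBS, and WT bleomycin replicate 1 stands apart at 6.46.

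The spread of each strand can be read against miRNAs of like abundance. Within groups the SD of miR-210-3p was 0.11, against a median of 0.20 over the 42 tested miRNAs whose mean lay within 0.5 log2 of its own. The SD of miR-210-5p was 0.40, against a median of 0.30 over 69 such miRNAs. In WT bleomycin replicate 1 the 5p strand stood 0.98 above its group mean, and 3.42% of the tested miRNAs stood farther from theirs in that library. The 3p strand stood 0.11 below its group mean in the same library.

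The first question was whether bleomycin injury changed the guide strand, the strand that low oxygen is known to raise. In WT lungs miR-210-3p was lower after bleomycin by a log2 difference of -0.19 ± 0.11 (SE; limma, adjusted p = 0.186), which did not pass. Among all tested miRNAs 26.7% passed in this comparison. The 95% confidence interval, -0.42 to 0.03, limits the change to between 0.748-fold and 1.02-fold. In R213G lungs the difference was 0.07 ± 0.10 (SE; limma, adjusted p = 0.605), with an interval from -0.14 to 0.28, or 0.908-fold to 1.21-fold. There 42.1% of the tested miRNAs passed.

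Averaged over both genotypes, the response of miR-210-3p was -0.06 ± 0.07 (SE; limma, adjusted p = 0.481), where 50.7% of the tested miRNAs passed. The interval ran from -0.22 to 0.09, with an upper bound of 1.06-fold. Its half-width, 0.15, compares with a median of 0.35 over all tested miRNAs, so that a small change of the guide strand could be bounded more tightly than that of most miRNAs. Of the 818 tested miRNAs, 53 had a smaller absolute mean response. An exact permutation test of the bleomycin and PBS labels within genotype gave p = 0.369 for this mean (two-sided; 0.474 adjusted over the 9 permutation tests run). These values rest on the deposited scaling. With library medians made equal, which lowers every bleomycin response by 0.12 in WT and 0.13 in R213G, miR-210-3p fell in WT (-0.31, interval -0.54 to -0.09; limma, adjusted p = 0.0388) and in the mean of both genotypes (-0.19; limma, adjusted p = 0.0388), and the R213G difference turned to -0.066. With quantile normalization the WT difference was -0.19 (limma, adjusted p = 0.176) and that in R213G -0.056. Under none of these scalings was the guide strand higher after bleomycin in WT or in the mean. Its share of the summed equalized counts of a library is another scaling, which was not tested. In R213G that share was 72.4 to 87.7 ppm after bleomycin, above the 59.3 to 70.5 ppm after PBS. In WT it was 60.7 to 71.6 ppm after bleomycin and 54.4 to 81.7 ppm after PBS, and these groups overlapped.

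The 5p strand answered bleomycin differently. In R213G lungs it fell by 1.31 on the log2 scale (SE 0.26; limma, adjusted p = 0.000983), to 0.404 of its PBS level, with an interval from 0.275-fold to 0.593-fold. Of the tested miRNAs 19.8% were called lower in this comparison, and in 17.4% all R213G bleomycin libraries lay below all R213G PBS libraries, as they did here. Of the 818 tested, 751 had a smaller absolute difference. Leaving out any 1 library gave between -1.43 and -1.18, with the call kept. The exact permutation test gave p = 0.0286, the smallest that 4 libraries against 4 allow (two-sided; 0.0643 adjusted over the 9 tests). In the authors' deposited table the difference is the same, and its q-value is 0.0285 from the parametric and 0.109 from the rank-based comparison.

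In WT lungs the 5p difference was -0.51 ± 0.28 (SE; limma, adjusted p = 0.190), with an interval from -1.11 to 0.09, and did not pass. Here 1 library, WT bleomycin replicate 1, decided the call, although it did not pass as an outlier. Its gap to the next library was 0.784 of the range of its group, under the limit of 0.829 (Dixon's test). Without WT bleomycin replicate 1 the 5p strand fell by 0.84 (SE 0.20; limma, adjusted p = 0.00666), while leaving out any other library gave between -0.62 and -0.37 with no call. Of the tested miRNAs 10.3% were called lower in WT with all libraries. Over both genotypes the mean response was -0.91 ± 0.19 (SE; limma, adjusted p = 0.000998), with 22.0% of the tested miRNAs called lower, and -1.07 without that library. The exact permutation test of the mean gave p = 0.00408 (0.0367 adjusted over the 9 tests). Few relabellings of the libraries within genotype thus gave as large a difference. Leaving out any 1 library gave an unadjusted p between 0.00143 and 0.00857 in this test, with 0.00143 when WT bleomycin replicate 1 was left out.

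**Figure D2:**
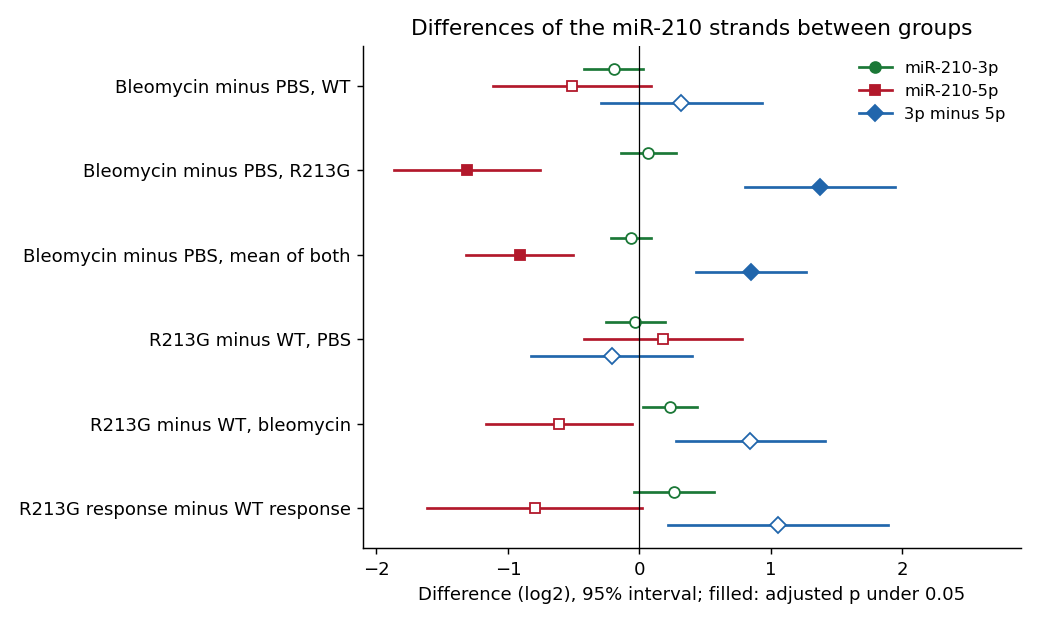
Log2 differences (x axis) of miR-210-3p, miR-210-5p and their ratio for the 6 comparisons (y axis); points are limma estimates over 15 libraries, lines are 95% confidence intervals, and filled points passed an adjusted p under 0.05. The intervals of the 3p strand are the narrowest, at -0.22 to 0.09 for the mean bleomycin response, and the filled points are those of the 5p strand and the ratio in R213G and in the mean of both genotypes.

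The strand ratio, 3p minus 5p on the log2 scale, compares the arms within a library and does not move when a library is rescaled. It is made of the same values as the strands above and is not separate evidence. In WT lungs given PBS it was 4.54, 4.60 and 4.58. Ratios of the equalized counts themselves, without the added 1 of the log2 values, are slightly larger than these log2 ratios give, and by them the guide outnumbered its partner 23.5-fold to 24.7-fold. In WT lungs given bleomycin it was 3.80, 5.36, 5.38 and 5.03, with count ratios of 14.1-fold in replicate 1 and 33.5-fold to 42.9-fold in the others. Replicate 1 lay below every PBS library, and the other 3 lay above them.

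In R213G lungs given PBS the ratio was 4.48, 4.23, 4.52 and 4.22, with count ratios of 18.8-fold to 23.3-fold. In R213G lungs given bleomycin it was 5.78, 5.66, 6.09 and 5.41, with count ratios of 43.6-fold to 71.5-fold. The groups were far apart and did not overlap, and in R213G the 5p strand made up 4.60% ± 0.49 (SD, n = 4) of both strands after PBS and 1.80% ± 0.36 (SD, n = 4) after bleomycin.

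To test the ratio, the same difference was fitted for all 234 hairpins whose 3p and 5p strands both passed the filter. In R213G the miR-210 ratio rose by 1.38 ± 0.27 (SE; limma over 234 pairs, adjusted p = 0.00121), a 2.60-fold shift to the guide strand, with an interval from 1.75-fold to 3.85-fold. Of the 234 ratios 11.5% were called higher there, and in 12.4% all R213G bleomycin libraries lay above all R213G PBS libraries. In WT the difference was 0.32 ± 0.29 (SE; limma, adjusted p = 0.521), where 3.42% were called higher, and without WT bleomycin replicate 1 the ratio rose by 0.68 (limma, adjusted p = 0.0310). Over both genotypes it rose by 0.85 ± 0.20 (SE; limma, adjusted p = 0.00316), with 15.8% of ratios called higher, and the exact permutation test gave p = 0.00980 (0.0441 adjusted over the 9 tests).

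**Figure D3:**
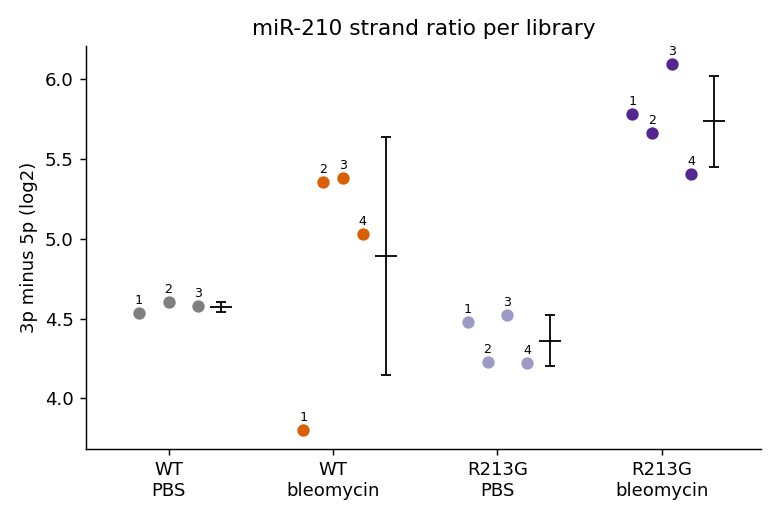
Strand ratio of miR-210, 3p minus 5p (y axis, log2), by group (x axis); each point is 1 library, numbered by replicate, and the bar is the mean with its SD. The R213G bleomycin libraries lie at 5.41 to 6.09, above the R213G PBS libraries at 4.22 to 4.52, and WT bleomycin replicate 1 lies at 3.80.

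A change of strand ratio was common among hairpins. In the mean of both genotypes 38.0% of the 234 ratios were called in either direction, and the median ratio moved by -0.07. Over the 15 libraries the mean ratio of miR-210 was 4.91, while the median absolute ratio of all pairs was 3.69, and 84 of the 234 pairs were more one-sided than miR-210. The pairs with the nearest mean ratio were miR-363, miR-1964 and miR-223. Their ratios moved by 0.24 (limma, adjusted p = 0.520), -0.24 (adjusted p = 0.623) and -0.85 (adjusted p = 8.16e-07) in the mean of both genotypes. The last of these, miR-223, is a myeloid hairpin, and its ratio fell by as much as that of miR-210 rose.

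**Figure D4:**
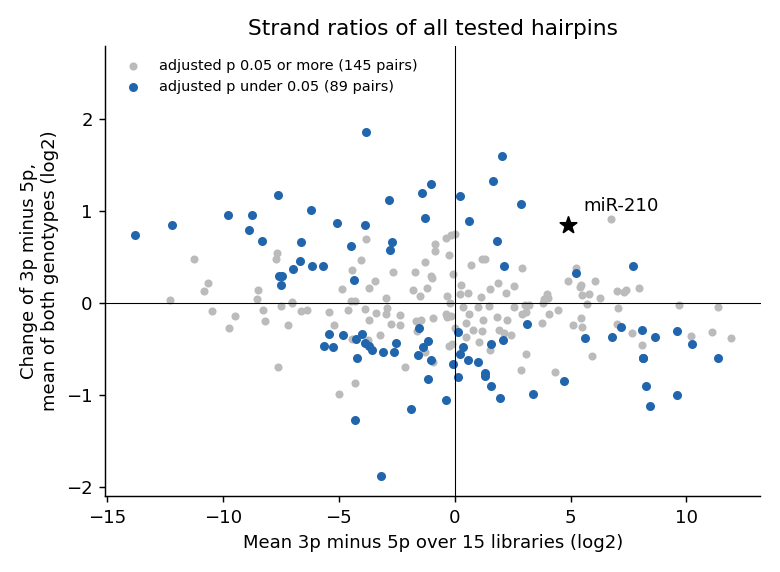
Change of the strand ratio after bleomycin, mean of both genotypes (y axis, log2), against the mean strand ratio over 15 libraries (x axis, log2) for 234 hairpins; blue points passed an adjusted p under 0.05 (limma) and the star is miR-210. The star lies at 4.91 and 0.85, on the side of hairpins with more of the 3p strand and among the ratios that rose.

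The comparison of R213G with WT lungs asked whether either strand differed with the EC-SOD variant. After PBS the R213G minus WT difference was -0.03 ± 0.11 (SE; limma, adjusted p = 0.992) for miR-210-3p and 0.18 ± 0.28 (SE; limma, adjusted p = 0.991) for miR-210-5p. The intervals ran from 0.838-fold to 1.14-fold for the guide and from 0.748-fold to 1.72-fold for its partner. In this comparison 0% of the tested miRNAs passed, and 5.38% had an unadjusted p under 0.05. The ratio differed by -0.21 ± 0.29 (SE; limma, adjusted p = 0.965), with 4.27% of the 234 ratios at an unadjusted p under 0.05.

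After bleomycin miR-210-3p was higher in R213G than in WT by 0.23 ± 0.10 (SE; limma, adjusted p = 0.387), with an interval from 1.02-fold to 1.36-fold. All 4 R213G libraries, at 10.53 to 10.70, lay above all 4 WT libraries, at 10.26 to 10.44, as in 3.06% of the tested miRNAs. The 5p strand went the other way, at -0.61 ± 0.26 (SE; limma, adjusted p = 0.387), and overlapped between genotypes, and it was -0.29 without WT bleomycin replicate 1. The ratio differed by 0.85 ± 0.27 (SE; limma, adjusted p = 0.153), and by 0.48 without WT bleomycin replicate 1. Of the 234 ratios 12.4% had an unadjusted p under 0.05, and in 2.99% all R213G bleomycin libraries lay above all WT bleomycin libraries, which for miR-210 was a margin of 5.41 over 5.38. Thus none of the 3 passed, in a comparison where 0% of the tested miRNAs passed and 11.9% had an unadjusted p under 0.05. With array weights 2 miRNAs passed, and without WT bleomycin replicate 1 there was 1. In the authors' deposited table the 3p difference has a p-value of 0.00477 by the parametric test and a q-value of 0.549. The numbers in the library names run in 1 series for R213G and in another for WT, so that genotype and that numbering cannot be told apart. Within WT every bleomycin library has a lower number than every PBS library, so treatment and numbering cannot be told apart there either. In R213G the treatments alternate along the numbering.

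Although the 5p fall passed in R213G and not in WT, the difference between the responses did not pass. The R213G response minus the WT response was -0.79 ± 0.39 (SE; limma, adjusted p = 0.611) for miR-210-5p and 0.26 ± 0.14 (SE; limma, adjusted p = 0.625) for miR-210-3p. For the ratio it was 1.06 ± 0.40 (SE; limma, unadjusted p = 0.0161, adjusted p = 0.555). Without WT bleomycin replicate 1 the interaction was -0.47 for the 5p strand, 0.22 for the 3p strand and 0.69 for the ratio. In the interaction 0% of the tested miRNAs passed and 7.95% had an unadjusted p under 0.05, as had 8.12% of the ratios.

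Markers of other cells that make miR-210 or that bleomycin moves were set beside these results. The erythroid markers miR-451a, miR-144-3p, miR-144-5p and miR-486a-5p were all present in every library. Their summed level (log2) ranged from 16.51 to 17.78 in WT PBS, 14.59 to 15.09 in WT bleomycin, 16.25 to 17.81 in R213G PBS and 15.39 to 17.22 in R213G bleomycin lungs. The ranges of these sums in the bleomycin groups did not overlap, with R213G higher, although 0 of the 4 markers passed between the genotypes. Taken singly, miR-451a was separate, at 13.91 or more in R213G bleomycin against 13.54 or less in WT bleomycin lungs. The markers miR-144-3p, miR-144-5p and miR-486a-5p overlapped. In 3.06% of the tested miRNAs all R213G bleomycin libraries lay above all WT bleomycin libraries. In WT 3 of the 4 erythroid markers fell after bleomycin, where 10.3% of all tested miRNAs were called lower, and in R213G 2 did, where 19.8% were. Of 5 myeloid markers 4 rose in WT, against 16.4% of all tested miRNAs called higher, and 3 in R213G, against 22.2%, or 4 there with quantile normalization. All 3 striated muscle markers fell in R213G, and 2 of them in WT. Of 5 epithelial markers 1 fell in WT and 3 in R213G, or 2 and 4 with equal library medians. With quantile normalization 1 epithelial marker fell in each genotype and 1 rose in R213G. Of the 2 smooth muscle markers 1 fell in each genotype. With equal library medians 2 fell in WT and 1 in R213G, and with quantile normalization 0 did. Of the 2 endothelial markers 0 fell in WT and 1, miR-126a-3p, fell in R213G (-0.41; limma, adjusted p = 0.0188), or 0 there with quantile normalization. The part of these cells in the levels of miR-210 was not tested.

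Likeness of pattern over the 15 libraries, which share the scaling and the treatment, set the strands apart. The miRNAs with the highest correlation to miR-210-3p were miR-652-3p (Pearson's r = 0.65), miR-451a (0.64), miR-615-3p (0.63), miR-144-3p (0.63) and miR-25-3p (0.61), out of 817 compared. Of these miR-451a and miR-144-3p are erythroid markers named above, while the erythroid markers miR-144-5p and miR-486a-5p were not among the 5. As the highest of 817, these correlations were picked by size, and they were not tested. Without WT bleomycin replicate 1 the correlations with miR-210-3p were 0.44, 0.57, 0.70, 0.50 and 0.48 in the same order. Those most like miR-210-5p followed it more closely, with miR-423-5p at 0.94, miR-1843b-3p at 0.92, miR-423-3p at 0.91, miR-532-3p at 0.90 and miR-744-5p at 0.90. Without WT bleomycin replicate 1 these 5 lay between 0.89 and 0.94. The choice by likeness to miR-210-5p, which was highest in that replicate, already favours miRNAs that were high there. All 5 stood above the other WT bleomycin libraries in that replicate, miR-423-5p for example at 12.69 against 12.23 to 12.40. Their bleomycin responses, in the mean of both genotypes, ran from -0.73 for miR-1843b-3p to -0.22 for miR-532-3p, a direction that the choice of miRNAs by likeness to miR-210-5p already favours.

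The sequences of the closest of them are shown with the seed in capitals, because none shares the seed of miR-210-5p and all are rich in G and C.
mmu-miR-423-5p: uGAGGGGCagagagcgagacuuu
mmu-miR-423-3p: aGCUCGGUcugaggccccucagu
mmu-miR-1843b-3p: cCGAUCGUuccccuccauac
mmu-miR-532-3p: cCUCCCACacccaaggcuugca
mmu-miR-744-5p: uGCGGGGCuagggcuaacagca
Bases G and C made up 56.5% of miR-423-5p, 65.2% of miR-423-3p, 60.0% of miR-1843b-3p and 63.6% of both others. In miR-210-5p they made up 68.2% and in miR-210-3p 63.6%, against a median of 48.0% over the 688 tested miRNAs with a sequence in the RefSeq table.

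The other miRNAs of the hypoxia pathway were taken from lists. Of 12 further miRNAs that low oxygen has been reported to induce, 3 fell and 0 rose in WT (limma), and 6 fell and 0 rose in R213G. These counts stand beside the shares of all tested miRNAs given above, which hold for the deposited scaling only. Counts under other scalings, here, for the cell markers and for the list that follows, have no such share beside them. With equal library medians 6 fell in WT and 8 in R213G, and with quantile normalization 3 fell in each and 2 rose in R213G. Their median differences in WT and R213G were -0.28 and -0.31, against 0.05 in each genotype over all tested miRNAs, and they shrank to -0.05 and -0.14 with quantile normalization. In the mean of both genotypes miR-26a-5p fell by 0.71 ± 0.09 (SE; limma, adjusted p = 7.62e-06), miR-181c-5p by 0.59 ± 0.08 and miR-181a-5p by 0.68 ± 0.10. With quantile normalization these were -0.35, -0.28 and -0.75. There 8 of the 12 fell, or 9 with equal library medians, while with quantile normalization 4 fell and 1, miR-103-3p, rose. The guide strand of miR-210, at -0.06, lay near the upper end of the range of this list, -0.71 to -0.05, whose median was -0.28.

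Of 11 miRNAs that repress HIF or the enzymes that control it, the calls in WT were 6 higher and 1 lower, and in R213G 6 higher and 3 lower, or 5 and 1 in WT and 5 and 3 in R213G with equal library medians. The medians were 0.40 and 0.48. In the mean of both genotypes, where 28.7% of the tested miRNAs were called higher and 22.0% lower, miR-184-3p rose by 2.07 ± 0.14 (SE; limma, adjusted p = 4.36e-09) and miR-31-5p fell by 0.75 ± 0.09 (SE; adjusted p = 4.25e-06). The latter is known to repress FIH, the hydroxylase that blunts HIF activity. A repressor of HIF-1α in several cell types, miR-155-5p, rose by 1.03 ± 0.12 (SE; limma, adjusted p = 5.07e-06). With quantile normalization 7 members rose and 2 fell in the mean, in place of 7 and 3.

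**Figure D5:**
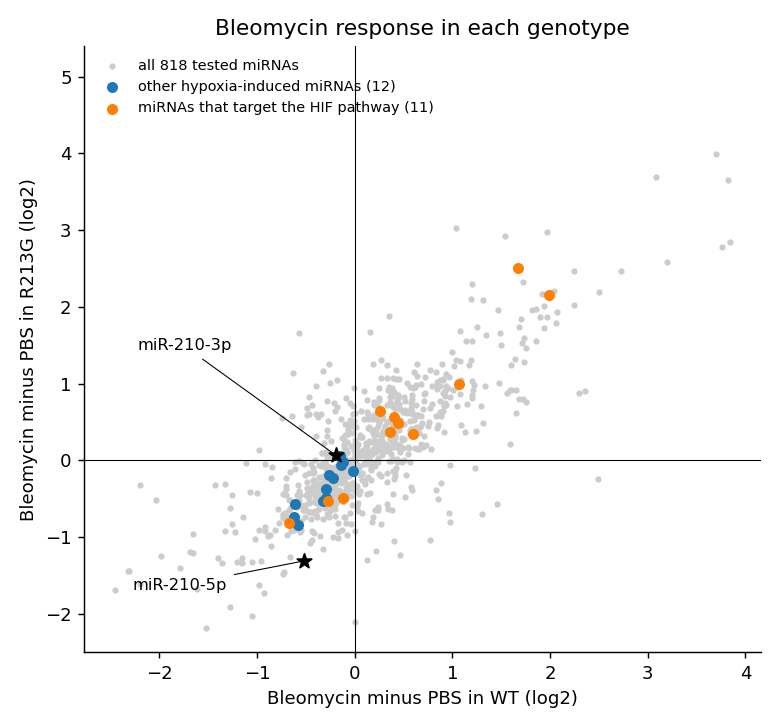
Bleomycin minus PBS in R213G (y axis, log2) against the same in WT (x axis, log2) for the 818 tested miRNAs, with the 12 other hypoxia-induced miRNAs in blue, the 11 that target the HIF pathway in orange and both miR-210 strands as stars. The guide strand lies near the origin at -0.19 and 0.07, and the 5p strand at -0.51 and -1.31.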

How the data were processed

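The 15 small RNA libraries of lung were summarised by the authors in 1 table. Per the submitters' processing notes, Bowtie2 2.3.2, SAMtools 1.9 and edgeR were used, while the genome build and the miRBase release used were not given in the sources used here. The deposited library values are on a log2 scale and were taken, from the values themselves, as log2 of 1 plus an equalized count, although the name of the table mentions RPKM. The authors' deposited log2 fold changes equal differences of group means within 7.2e-09, and the deposited p-values and q-values come from their Welch and Wilcoxon tests, per the file headers.

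Rows that exceeded 5 equalized counts in 3 or more libraries were tested. Group means of the log2 values were estimated with limma 3.58.1 under R 4.3.3 (variance trend on level), and 6 contrasts were tested with Benjamini-Hochberg adjustment over all 818 miRNAs, an adjusted p under 0.05 being called. Strand ratios of 234 hairpins were fitted likewise, with the trend on the scarcer strand. Both procedures were tested on simulated data. Exact two-sided permutation tests relabelled libraries (Python 3.11.15). Hairpins were folded with RNAfold 2.7.2. Both members and all lists were chosen with earlier results of these data known. From each list the 3 miRNAs with the smallest p in the mean response, for each strand the 5 most correlated miRNAs, and the 3 hairpins nearest in ratio were named. Alternatives left out single libraries or changed the filter, pseudocount, scaling or trend, or used array weights, a replicate block or the compared groups alone. The comparison of GC content was added after the values were seen. Replicate numbers in the labels were not taken to pair libraries.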

Additional observations from a re-analysis of the deposited data

How the results depend on the processing

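Under other settings 620 repeats kept their direction and their side of the threshold, or stayed within 1.5 times the count reported, 5 reversed, 4 passed where they had not, and 2 moved a count: the miRNAs called between genotypes after bleomycin went from 0 to 1 without WT bleomycin replicate 1 and to 2 with array weights. With equal library medians miR-210-3p passed in WT (-0.31) and in the mean of both genotypes (-0.19), and its R213G response turned to -0.066, and with quantile normalization to -0.056. With array weights the R213G minus WT difference of miR-210-3p after PBS was 0.0011 in place of -0.03. Leaving out 1 library at a time gave -0.12 to 0.046 for that difference, -0.84 to -0.37 for the WT response of miR-210-5p and 0.16 to 0.68 for the WT response of the strand ratio, the last 2 passing without WT bleomycin replicate 1. A replicate block changed no call: the R213G response of miR-210-5p stayed at -1.31 (limma, adjusted p = 0.00130) and the WT response was -0.56 (adjusted p = 0.164). The numbers were not taken to pair the libraries, because the labels do not say that they do. Deviations were correlated above 0.1 in 9 of 21 same-numbered pairs, with a median r of 0.06. Among differently numbered pairs this held in 11 of 63, with a median of -0.02. These counts lean towards the same-numbered pairs, and whether those libraries are linked was not tested. Leaving out libraries within the permutation tests was chosen after seeing the data and changed no call. The limits are 3 or 4 libraries a group, an unknown read depth, and equalized counts of 21.3 to 87.3 for the 5p strand.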

Other observations

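Across the 688 tested miRNAs with a sequence, the GC content was correlated with the deviation from the group mean in WT bleomycin replicate 1 at r = 0.28, the largest of the 15 libraries in size, and in R213G bleomycin replicate 3, where miR-210-5p was lowest, at r = -0.24. Over genes, which are not independent replicates, it was correlated with the mean bleomycin response at r = -0.13. Of the 74 tested miRNAs whose GC content lay within 5 points of that of miR-210-5p, 17 fell and 12 rose in R213G, and 4 fell and 8 rose in WT (limma), with medians of -0.16 and -0.10. Both miR-210 strands are themselves among the 74, and miR-210-5p is among the 17. Among all tested miRNAs 19.8% were called lower and 22.2% higher in R213G, and 10.3% and 16.4% in WT. The part of GC content in the values of miR-210-5p was not tested.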
